A study of Mus musculus with 13 samples.

Results

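The genes described here build and organise the postsynaptic side of the neuromuscular junction, the synapse between motor nerve and skeletal muscle. They are 10 genes chosen by symbol: the acetylcholine receptor subunits Chrna1, Chrnb1, Chrnd, Chrng and Chrne, the receptor clustering proteins Musk, Rapsn and Dok7, and the cholinesterases Ache and Bche. All 10 were found among the 23366 genes of the count table, and all 10 were among the 16537 genes that passed the filter on low counts. RNA had been sequenced from 13 libraries of primary mouse muscle cells of mixed strain background, grown from hind limb muscle of pups at postnatal day 2 to 3. Wild-type myoblasts (n = 4) and dICR/dICR myoblasts (n = 2) were proliferating cells. Wild-type myotubes (n = 5) and dICR/dICR myotubes (n = 2) had spent 24 hours in medium with 1% horse serum. The labels' protocols also name 10% calf serum for all 13 libraries. The dICR/dICR cells carry a homozygous deletion of the imprinting control region between Igf2 and H19. The labels do not say whether replicates came from separate cultures or animals, so p-values measure only the spread between these samples, which may be technical.

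The muscle acetylcholine receptor is a pentamer of subunits that opens a cation channel when the nerve releases acetylcholine. Fetal receptors contain the gamma subunit (Chrng), which is replaced by the epsilon subunit (Chrne) in innervated adult muscle. Nerve-derived agrin binds LRP4 and activates the receptor tyrosine kinase MuSK, for which DOK7 is the cytoplasmic activator, and rapsyn then anchors receptors in clusters. Acetylcholinesterase ends the signal by hydrolysing acetylcholine, and butyrylcholinesterase is a related enzyme with a broader choice of substrates. Cultured myotubes without nerve switch on receptor and clustering genes under myogenic transcription factors such as myogenin, which bind E-boxes.

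Total counts were 35.56 to 56.44 M (mega) counts in 7 libraries and 5.31 to 10.91 M in the other 6. These deep and shallow sets were defined from the data, divided at 20 M, and are not groups of the study. The shallow set held wild-type myoblasts 3 and 4, wild-type myotubes 4 and 5 and both dICR/dICR myoblasts. The deep set held all others, so dICR/dICR cells have no set with both stages. H19, the noncoding RNA whose expression depends on the deleted region, stood at 52.4 to 71.5 CPM (the count relative to the total of its library times the TMM factor) in the 4 dICR/dICR libraries and at 2340 to 40500 CPM in the 9 wild-type ones. The Y-linked gene Ddx3y stood at 0.153 to 0.462 CPM in wild-type libraries of the shallow set and at 14.5 to 176 CPM in the other 9. The summed level of the myotube markers, 5 of 6 in the table, was 1830 to 9330 CPM in wild-type and 1290 to 2420 CPM in dICR/dICR myoblasts. It was 19100 to 33900 CPM in wild-type and 7720 to 13800 CPM in dICR/dICR myotubes. Summed myoblast markers (6 of 6) were at 1690 to 3400 CPM in wild-type myoblasts and at 4450 to 6560 CPM in wild-type myotubes. In dICR/dICR cells they were at 1800 to 1840 and 3420 to 4740 CPM, so the sum was higher in myotubes of both genotypes. In wild-type differentiation 3 of the 6 were called higher and 2 lower. Over all libraries summed Schwann cell and nerve markers (6 of 6) were at 1.26 to 15.1 and neuronal markers (6 of 6) at 2.58 to 17.1 CPM. Endothelial markers (5 of 5) were at 0.61 to 6.13, macrophage markers (4 of 5) at 1.87 to 11.4 and erythroid markers (4 of 4) at 1.14 to 4.4 CPM. Chat, the enzyme that makes acetylcholine in motor neurons, did not exceed 0.261 CPM in any library, and the erythroid markers Hba-a1 and Hbb-b1 were at 0 in all.

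Promoter sequences were found for 8 of the 10 genes in the RefSeq table of the GRCm38.p6 build, which is later than the mm9 build used for the counts. Each spans 250 bases before to 50 bases after the start of the gene. Those of 5 genes are shown because they stand for the roles and differences described below: the most abundant subunit Chrna1, the fetal and adult subunits Chrng and Chrne, the kinase Musk, and Bche. Capitals mark the E-box CANNTG, and in Chrne also CCGGAA, the core of the N-box known from synapse-specific promoters. Each is written 5′ to 3′ on the strand of its gene: Chrna1 at chr2:73580289-73580588, minus strand, Chrng at chr1:87205561-87205860, plus strand, Chrne at chr11:70619145-70619444, minus strand, Musk at chr4:58285712-58286011, plus strand and Bche at chr3:73708366-73708665, minus strand.
Chrna1: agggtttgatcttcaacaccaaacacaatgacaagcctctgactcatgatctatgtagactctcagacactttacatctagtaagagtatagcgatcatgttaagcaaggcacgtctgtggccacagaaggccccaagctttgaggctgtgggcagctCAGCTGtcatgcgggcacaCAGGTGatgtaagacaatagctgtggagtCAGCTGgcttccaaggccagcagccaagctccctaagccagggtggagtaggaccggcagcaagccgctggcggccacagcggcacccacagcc
Chrng: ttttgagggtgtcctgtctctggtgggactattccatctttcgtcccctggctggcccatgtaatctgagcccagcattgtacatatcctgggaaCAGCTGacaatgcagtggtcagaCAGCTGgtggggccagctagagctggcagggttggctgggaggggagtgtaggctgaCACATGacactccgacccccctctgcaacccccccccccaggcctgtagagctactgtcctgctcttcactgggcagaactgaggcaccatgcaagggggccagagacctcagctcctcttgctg
Chrne: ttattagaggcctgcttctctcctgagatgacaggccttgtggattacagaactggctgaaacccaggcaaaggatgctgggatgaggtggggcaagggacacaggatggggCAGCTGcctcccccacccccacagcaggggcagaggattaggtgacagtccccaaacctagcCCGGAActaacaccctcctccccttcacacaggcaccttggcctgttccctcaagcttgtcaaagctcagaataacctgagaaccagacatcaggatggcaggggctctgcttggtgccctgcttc
Musk: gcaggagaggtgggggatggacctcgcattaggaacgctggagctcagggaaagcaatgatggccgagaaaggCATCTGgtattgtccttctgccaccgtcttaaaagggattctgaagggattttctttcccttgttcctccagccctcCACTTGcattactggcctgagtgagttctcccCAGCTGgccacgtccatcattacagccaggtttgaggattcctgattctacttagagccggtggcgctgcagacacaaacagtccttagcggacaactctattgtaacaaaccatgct
Bche: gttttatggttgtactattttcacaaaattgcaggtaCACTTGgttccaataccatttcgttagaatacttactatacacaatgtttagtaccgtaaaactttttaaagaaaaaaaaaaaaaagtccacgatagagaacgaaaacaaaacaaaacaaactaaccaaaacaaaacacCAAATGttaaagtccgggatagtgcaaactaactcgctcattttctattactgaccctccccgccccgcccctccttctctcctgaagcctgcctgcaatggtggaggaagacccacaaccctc

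The 8 genes have 9 promoters in the table, 2 of them for Dok7. At least 1 CANNTG was present in 8 of the 9 (88.9%), all but 1 of the Dok7 promoters, and in 72.3% of the 32851 promoters of the table. The E-box CAGCTG, which is also a CANNTG, was present in 4 of the 9 (44.4%), those of Chrna1, Chrng, Chrne and Musk, and in 16.3% of all promoters. Its reverse complement is itself, so both strands were covered. The Bche promoter held 2 CANNTG and no CAGCTG. The sequence CCGGAA, searched on both strands, was present in the Chrne promoter alone among the 9 (11.1%) and in 14.9% of all promoters. These matches describe letters in the window shown and not sites that were tested for binding.

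The first comparison describes how the genes behaved as wild-type myoblasts became myotubes. Over all libraries 4 of the 10 were called higher and none lower: Dok7, Chrna1, Chrnb1 and Musk. Among all genes tested 19.1% were called, 8.86% as higher. The median log2 fold change of the 10 genes was 0.82, against 0.02 for all genes tested. All libraries of both groups were separate in 3 of the 10 genes (Chrna1, Chrnb1 and Dok7, each higher in myotubes), where 9.07% of all genes were higher without overlap. Summed smooth muscle and pericyte markers were at 82.5 to 395 CPM in wild-type myoblasts and at 2160 to 4490 CPM in wild-type myotubes. Of these 5 markers Acta2, which differentiating muscle cells also express, and Pdgfrb were called higher and Rgs5 was called lower. Summed fibroblast markers were at 205 to 425 and 204 to 918 CPM, and of the 5 tested Col1a1 was called higher. The part of these markers in the values of the 10 genes was not tested.

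Chrna1, the acetylcholine-binding alpha subunit, was measured at 720, 819, 1200 and 1250 CPM in wild-type myoblasts 1 to 4. It stood at 1950, 1380, 2970, 2060 and 1740 CPM in wild-type myotubes 1 to 5. Every myotube library was above every myoblast library, and the 2 shallow myoblast libraries were above the 2 deep ones. The mean went from 996 CPM (SD 266, n = 4) to 2020 CPM (SD 588, n = 5), which is 1.02 ± 0.29 on the log2 scale (SE; adjusted p = 0.0311, edgeR quasi-likelihood test with Benjamini-Hochberg adjustment). The call was lost without wild-type myoblast 1, wild-type myoblast 2, wild-type myotube 3 or wild-type myotube 4, with adjusted p from edgeR between 0.0533 and 0.094.

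Chrnb1, the beta subunit, was at 120, 131, 109 and 117 CPM in the 4 wild-type myoblast libraries. In the 5 myotube libraries it was at 151, 194, 293, 157 and 165 CPM. The myoblast values lay close together, all below the myotube values, and myotube 3 stood highest. Its log2 fold change was 0.68 ± 0.22 (adjusted p = 0.0455, edgeR), and the call was kept in 3 of 13 fits that left out 1 library. Chrnd, the delta subunit, overlapped almost entirely, at 122 to 260 CPM in myoblasts (median 186) and 142 to 260 CPM in myotubes (median 234). The log2 change of Chrnd, 0.15 ± 0.30, missed the threshold (adjusted p = 0.772, edgeR) and turned negative when libraries were scaled by their totals alone or when wild-type myoblast 1 was left out.

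Chrng, the fetal gamma subunit, differed between the sets in wild-type myoblasts: 107 and 119 CPM in the deep libraries against 426 and 513 CPM in the shallow ones. The myotube libraries held 442, 377, 802, 577 and 630 CPM, and the shallow myoblasts fell inside that range. With the sets pooled, its log2 change of 0.96 ± 0.48 missed the threshold (adjusted p = 0.189, edgeR). Within the deep set it was 2.26 ± 0.40 (adjusted p = 0.00187, edgeR), and within the shallow set 0.36 ± 0.40 (adjusted p = 0.641). Myog, which encodes myogenin, divided the same libraries, at 146 and 142 CPM in the deep and 1180 and 1200 CPM in the shallow wild-type myoblasts, and at 2500 to 6410 CPM in wild-type myotubes. The part of Myog in the difference between the sets was not tested.

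Chrne, the adult epsilon subunit, was near the detection limit. Its counts were 19, 22, 2 and 4 in wild-type myoblasts 1 to 4 and 0, 13, 20, 0 and 12 in wild-type myotubes 1 to 5. The dICR/dICR libraries held 5 and 5 counts in myoblasts and 21 and 14 in myotubes. The range of wild-type myotubes, 0 to 2.44 CPM, included every other library, and no fold change is given at these counts. The 2 libraries with 0 counts allow up to 0.114 CPM in wild-type myotube 1 and 0.462 CPM in wild-type myotube 4 (3 counts; counting error only). The log2 ratio of Chrng to Chrne counts, with 0.5 added to each, was 8.20, 8.09, 10.43 and 9.54 in wild-type myoblasts 1 to 4. In wild-type myotubes 2, 3 and 5 it was 9.92, 10.67 and 7.95. For the 2 myotube libraries at 0 epsilon counts the ratio is set by the 0.5 added, so no group mean is given. The difference of the groups, 2.12 with 0.5 added and 1.56 with 2 added, did not pass an exact two-sided permutation test (p = 0.175 and 0.159; with 0.5 added, adjusted over 3 comparisons, 0.262; the smallest p this design allows is 0.0159). The ratio never fell below 6.50 in any of the 13 libraries, so gamma counts exceeded epsilon counts throughout.

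Levels between genes can be compared only per length, and for this the CPM were divided by the length of all exons of a gene. On that scale the wild-type myotube medians were 445 CPM per kb for Chrna1, 208 for Chrng, 76.6 for Chrnb1, 76.6 for Chrnd and 0.233 for Chrne. Chrna1 was at 315 to 677 CPM per kb over the 5 libraries and Chrng at 136 to 288, with no overlap. Chrnb1 (70.1 to 136) and Chrnd (46.5 to 85.1) overlapped, so those neighbours were not ordered beyond their spread. Rapsn (55.9 to 87.3) and Musk (44.8 to 117) overlapped both, Dok7 was lower at 19.1 to 32.3, and by their medians Ache (1.99, range 0.226 to 17.8) and Bche (1.26, range 0.485 to 1.48) were lowest after Chrne.

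**Figure D1:**
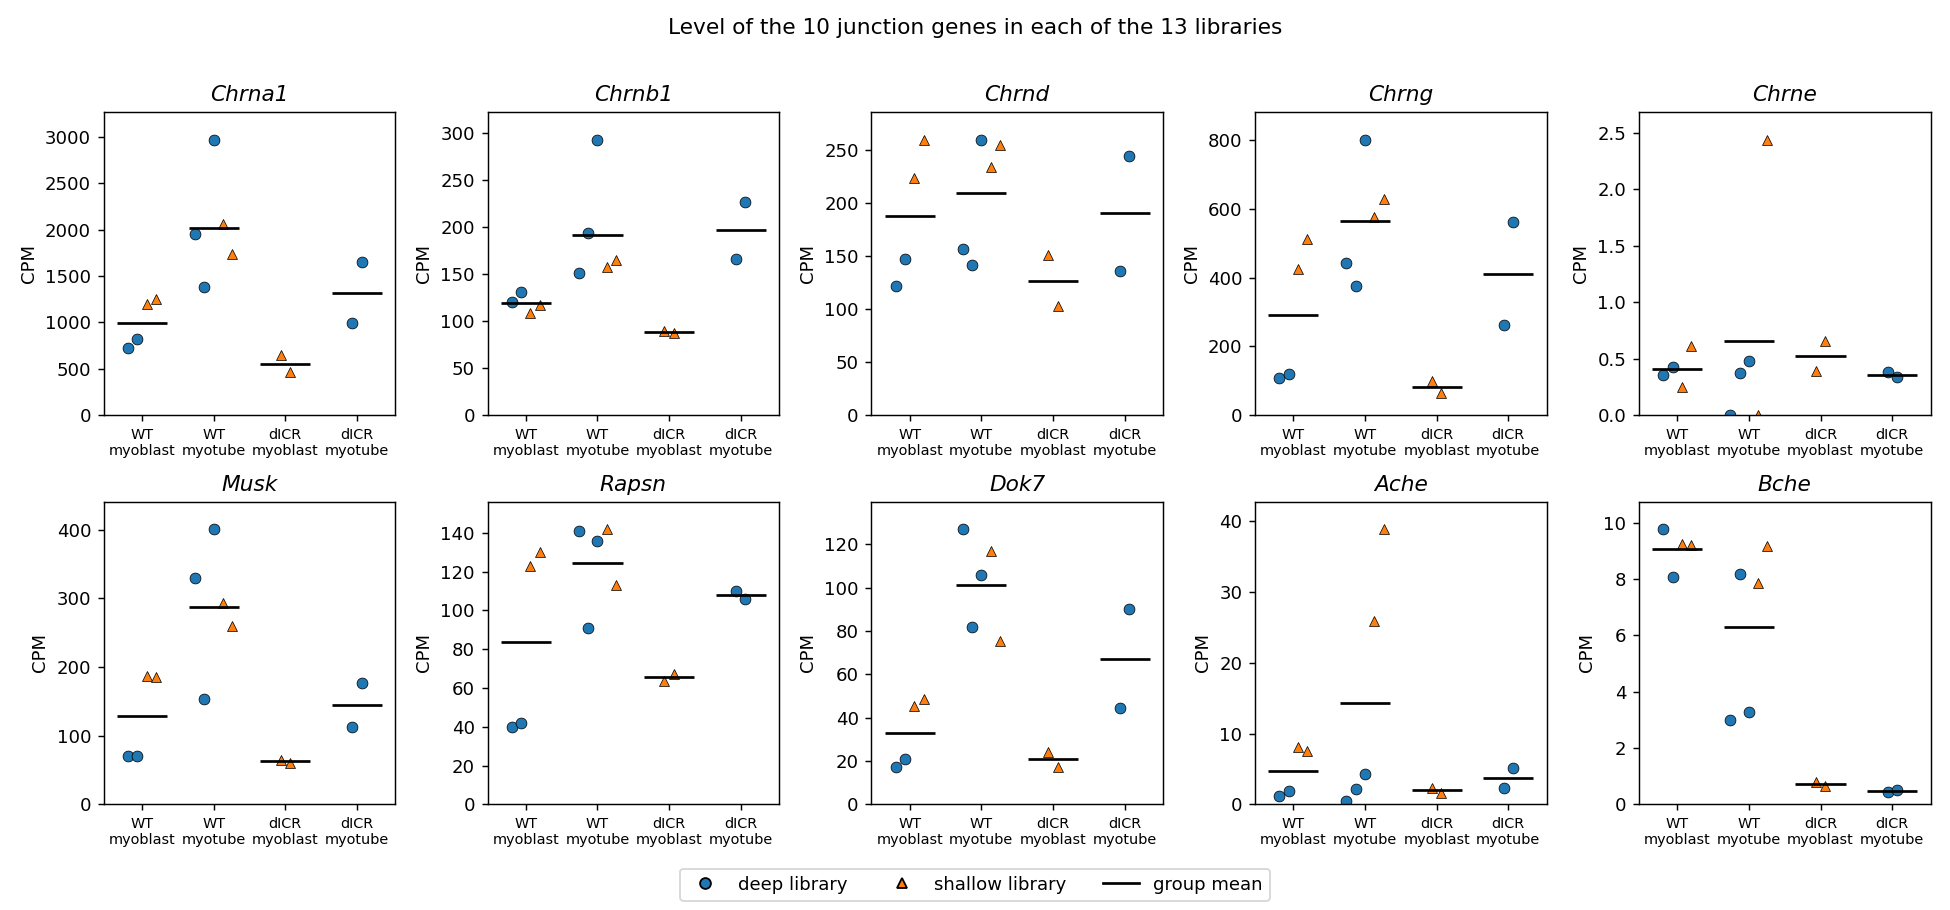
CPM of each gene (y axis, linear, from 0) in the 4 groups (x axis; WT is wild type, dICR is dICR/dICR), 1 point per library and a bar at the group mean. Bche lies at 0.436 to 0.782 CPM in the 4 dICR/dICR libraries and at 3.01 or above in all wild-type ones, and Chrng divides into deep and shallow libraries in wild-type myoblasts.

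Among the clustering proteins Dok7 changed most. DOK7 is the adaptor that MuSK needs for full activity in muscle. Its levels were 17, 20.8, 45.5 and 48.4 CPM in myoblasts of wild type and 127, 81.8, 106, 117 and 75.2 CPM in myotubes of wild type. The groups did not overlap, and again the shallow myoblasts were above the deep ones. The log2 fold change was 1.63 ± 0.36 (adjusted p = 0.00922, edgeR), and the gene was called in each of the 13 fits that left out 1 library. Within the shallow set the value of 1.03 ± 0.35 did not pass (adjusted p = 0.0969, edgeR), while within the deep set it was 2.47 ± 0.35 (adjusted p = 0.000494).

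Musk, the receptor tyrosine kinase, was measured at 69.8, 70.5, 187 and 185 CPM in the 4 myoblast libraries. The myotube libraries held 330, 154, 401, 294 and 260 CPM, of which myotube 2 lay below the shallow myoblasts. The log2 fold change of 1.17 ± 0.37 passed narrowly (adjusted p = 0.0466, edgeR) and was called in 3 of 13 fits without 1 library. Rapsn encodes rapsyn, the scaffold beneath the receptors. Its levels were 40, 42, 123 and 130 CPM before and 141, 91, 136, 142 and 113 CPM after differentiation, so the shallow myoblasts reached myotube levels. With the sets pooled, its log2 change of 0.58 ± 0.35 missed the threshold (adjusted p = 0.274, edgeR), whereas within the deep set it was 1.58 ± 0.22 (adjusted p = 0.000436). Rapsn overlaps Gm13778 on the opposite strand, and without a stated strand setting, reads of the overlap cannot be assigned.

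Within the deep set 6 of the 10 genes were called higher, namely Chrna1, Chrnb1, Chrng, Musk, Rapsn and Dok7, where 29.1% of all genes were called and 14.3% as higher. Within the shallow set 0 of 10 were called by edgeR, where 6.98% of all genes were, and none of the 10 was called lower in either set. In the shallow set 2 of the 10 had an unadjusted p under 0.05 by edgeR, and the share of all genes at that level was not counted. The difference between the differentiation changes of the 2 sets was tested after the data had been seen, and 0 of 10 genes passed (0.435% of all genes did). By edgeR 4 of the 10 had an unadjusted p under 0.05 in this test, and here too the share of all genes was not counted. The smallest adjusted p belonged to Rapsn, at 1.57 ± 0.31 (adjusted p = 0.062, edgeR).

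**Figure D2:**
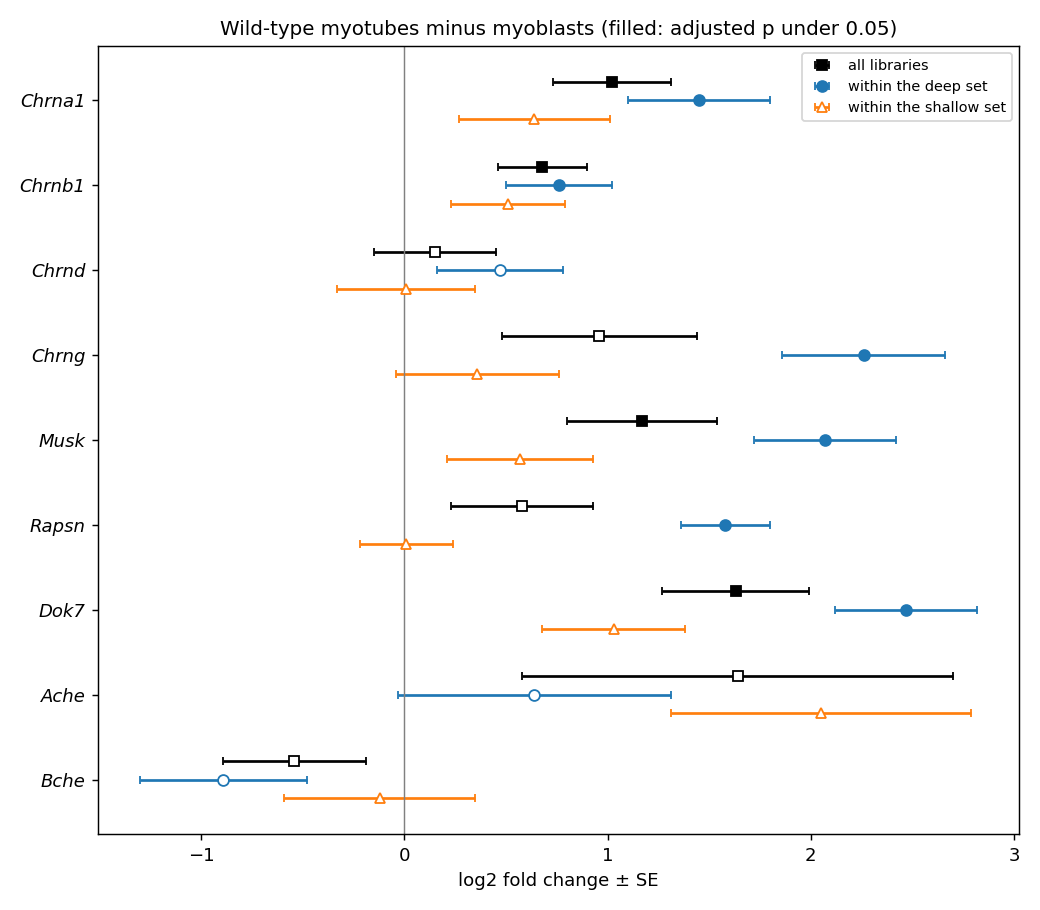
Log2 fold change ± SE of 9 genes between wild-type myotubes and myoblasts (x axis), over all libraries and within the deep and the shallow set; filled symbols passed an adjusted p of 0.05. The deep values of Chrng, Musk, Rapsn and Dok7 (1.58 to 2.47) lie to the right of the shallow ones (0.01 to 1.03), and Chrne is left out because its counts are too low.

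The cholinesterases did not pass in this comparison. Ache was measured at 1.1, 1.92, 8.14 and 7.51 CPM in myoblasts and at 0.495, 2.17, 4.35, 25.9 and 38.9 CPM in myotubes of wild type. Shallow libraries were the higher ones in both groups, and the groups overlapped. Its log2 fold change was 1.64 ± 1.06 (adjusted p = 0.311, edgeR). Bche was measured at 9.77, 8.08, 9.25 and 9.19 CPM in these myoblasts and at 3.01, 8.18, 3.27, 7.85 and 9.17 CPM in the myotubes. Wild-type myotubes 1 and 3 were low and the other 3 lay near the myoblasts, and the log2 change was -0.54 ± 0.35 (adjusted p = 0.305, edgeR).

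The wider set of junction genes was a list of 36 others, of which 35 were tested (Prima1 was not). In wild-type differentiation 11 rose (8.86% of all genes did), 3 fell (10.2% did) and the other 21 did not pass, and their median log2 fold change was 0.51 against 0.02 for all genes. The 5 with the smallest adjusted p all rose. Among them were Hdac9, a class IIa histone deacetylase of muscle, at 2.53 ± 0.34 (adjusted p = 0.000987, edgeR), and Erbb2, a neuregulin co-receptor, at 1.76 ± 0.27 (adjusted p = 0.00171). Sntb1, a syntrophin of the dystrophin complex, changed by 2.43 ± 0.46 (adjusted p = 0.00458, edgeR). Ncam1, the neural cell adhesion molecule that is spread over fetal muscle fibres, changed by 2.23 ± 0.41 (adjusted p = 0.00435, edgeR). The 3 that fell, named after their values were seen, were the ligand gene Nrg1 (-1.83 ± 0.44), the kinase gene Pak1 (-1.10 ± 0.22) and the syntrophin gene Sntb2 (-0.91 ± 0.24). Within the shallow set 7 of the 35 passed, where 6.98% of all genes did, and within the deep set 21, where 29.1% did.

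The second comparison asks how dICR/dICR myoblasts differed from wild-type ones. Over all libraries 0 of the 10 genes were called, where 0.0302% of all genes were. By edgeR 3 had an unadjusted p under 0.05 (Chrna1, Chrng and Bche; 12.1% of all genes did), and DESeq2 called 1, Bche (3.42% of all genes). In 5 of the 10 genes, Chrna1, Chrnb1, Chrng, Musk and Bche, both dICR/dICR libraries were below all 4 wild-type libraries, against 14.3% of all genes. In RNA from whole cultures, fewer cells of a type and less RNA per cell cannot be told apart.

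Bche was at 0.782 and 0.652 CPM in the dICR/dICR myoblasts, where wild-type libraries held 8.08 to 9.77 CPM. The dICR/dICR values rest on 10 and 5 counts, and the wild-type values on 60 to 524. The wild-type libraries were close to each other whether deep or shallow, and both dICR/dICR libraries lay far below them. The log2 fold change was -3.64 ± 0.57, just short of the threshold over all libraries (adjusted p = 0.0562, edgeR). Within the shallow set it was -3.66 ± 0.55 (adjusted p = 0.00713, edgeR), and without the 4 shallow wild-type libraries -3.58 (adjusted p = 0.00618). The latter fit sets shallow dICR/dICR against deep wild-type myoblasts, so genotype and set cannot be told apart in it. Summed fibroblast markers (6 of 6 in the table) were at 205 to 425 CPM in wild-type and 173 to 258 CPM in dICR/dICR myoblasts, and summed smooth muscle and pericyte markers (5 of 5) at 82.5 to 395 and 112 to 284 CPM. These ranges overlapped.

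Chrng was at 99 and 65 CPM in the dICR/dICR myoblasts, below the deep wild-type libraries (107 and 119) by a little and below the shallow ones (426 and 513) by much. The log2 change of Chrng was -1.83 ± 0.67 with the sets pooled (adjusted p = 0.321, edgeR) and -2.52 ± 0.42 within the shallow set (adjusted p = 0.00915). Musk was at 64.4 and 60.5 CPM, and its log2 fold changes were -1.03 ± 0.49 (adjusted p = 0.423, edgeR) and, within the shallow set, -1.57 ± 0.37 (adjusted p = 0.0349). For Rapsn the direction depended on which wild-type libraries were used. The dICR/dICR values of 63.6 and 67.4 CPM lay between the deep (40 and 42) and the shallow (123 and 130) wild-type myoblasts. The log2 change of Rapsn was -0.35 ± 0.45 with the sets pooled (adjusted p = 0.767, edgeR), -0.95 ± 0.23 within the shallow set (adjusted p = 0.0377) and 0.72 without the 4 shallow wild-type libraries (adjusted p = 0.111). In the last of these fits genotype and set cannot be told apart.

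Chrna1 stood at 648 and 462 CPM in dICR/dICR myoblasts, below every wild-type library, and its log2 change was -0.85 ± 0.38 (adjusted p = 0.409, edgeR). Chrnb1 was at 89.7 and 87.4 CPM, also below the wild-type range of 109 to 131 CPM. Chrnd (151 and 103), Dok7 (24.1 and 17.3) and Ache (2.35 and 1.56) fell inside or across the wild-type ranges.

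Within the shallow set 4 of the 10 genes were lower in dICR/dICR myoblasts (Chrng, Musk, Rapsn and Bche), where 5.25% of all genes were called and 3.31% as lower. In that set Myog was at 402 and 151 CPM in dICR/dICR and 1180 and 1200 CPM in wild-type myoblasts, and its log2 change was -2.10 ± 0.49 (adjusted p = 0.0333, edgeR). Small nucleolar RNA genes, by symbol, held 7.13% and 5.86% of counts in the dICR/dICR and 2.79% and 3.46% in the shallow wild-type myoblasts, and 0.0118% to 0.133% in the deep libraries of both stages. Myotube markers, Ddx3y and this share moved with the genotype among the shallow myoblasts, and their part in the values was not tested. Without the 4 shallow wild-type libraries Bche alone of the 10 was called, where 9.95% of all genes were. Genotype and set cannot be told apart in that fit. Of the other 35 junction genes 0 were called over all libraries by edgeR (0.0302% of all genes were), with 4 at an unadjusted p under 0.05 (12.1% of all genes) and 1 called by DESeq2 (3.42%). Within the shallow set 4 of the 35 were lower, beside the 3.31% of all genes: Sntb1 (-1.70 ± 0.33), Ncam1 (-1.61 ± 0.39), the muscle sodium channel Scn4a (-2.53 ± 0.59) and Myog.

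In myotubes the genotype comparison called 1 of the 10 genes over all libraries, Bche, as lower, where 0.556% of all genes were called and 0.224% as lower. Both dICR/dICR libraries were below all wild-type libraries in Bche alone, against 8.76% of all genes. Bche was at 0.436 and 0.499 CPM (24 and 21 counts) in dICR/dICR myotubes and at 3.01 to 9.17 CPM (45 to 283 counts, median 7.85 CPM) in wild-type ones. Both dICR/dICR libraries lay far below the lowest wild-type library. The log2 fold change was -3.72 ± 0.55 (adjusted p = 0.0181, edgeR) and within the deep set -3.36 ± 0.49 (adjusted p = 0.00603; 3.63% of all genes were called there). Bche was no longer called without dICR/dICR myotube 1 (-3.63, adjusted p = 0.43, edgeR) or without dICR/dICR myotube 2 (-3.82, adjusted p = 0.0808). Those fits assume that the lone dICR/dICR library varies as the other groups do. Summed fibroblast markers (6 of 6) were at 204 to 918 CPM in wild-type and 95 to 197 CPM in dICR/dICR myotubes, and smooth muscle and pericyte markers (5 of 5) at 2160 to 4490 and 1020 to 2280 CPM. Their part in the Bche value was not tested.

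The other genes did not pass in myotubes. Chrna1 stood at 988 and 1650 CPM in dICR/dICR myotubes and at 1380 to 2970 CPM in wild type, and its log2 change was -0.61 ± 0.37 (adjusted p = 0.414, edgeR). Musk stood at 113 and 177 CPM against 154 to 401 CPM, and its log2 change was -0.99 ± 0.48 (adjusted p = 0.318, edgeR). In both genes dICR/dICR myotube 1 was below all wild-type libraries and dICR/dICR myotube 2 was within their range. Chrng at 261 and 562 CPM showed the same pattern, and its log2 change was -0.46 ± 0.60 (adjusted p = 0.727, edgeR). Chrnb1 (166 and 227), Chrnd (136 and 245), Rapsn (110 and 106) and Dok7 (44.4 and 90) had at least 1 library within the wild-type range. Myog was at 1250 and 1670 CPM in these libraries and at 2500 CPM or above in all wild-type myotubes, and its part in these values was not tested.

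Ache was at 2.25 and 5.13 CPM in dICR/dICR myotubes, inside the wild-type range of 0.495 to 38.9 CPM. Its log2 fold change of -1.93 ± 1.39 (adjusted p = 0.494, edgeR) rested on the shallow wild-type myotubes 4 and 5, and within the deep set it was 0.64 ± 0.64 (adjusted p = 0.60). The log2 ratio of Ache to Bche counts averaged 2.84 (SD 0.70, n = 2) in dICR/dICR and -0.05 (SD 2.10, n = 5) in wild-type myotubes. The 2 groups did not overlap, but with 2 libraries against 5 the exact two-sided permutation p of 0.0952 is the smallest possible (adjusted over 3 comparisons 0.20). In myoblasts this ratio was 1.36 (SD 0.25, n = 2) against -1.42 (SD 1.44, n = 4), again without overlap, and the exact permutation p of 0.133 is the smallest that 2 against 4 allow. The Chrng to Chrne ratio differed by -1.89 in myoblasts (exact permutation p = 0.133, n = 2 and 4). In myotubes that difference, which holds the 2 libraries at 0 epsilon counts, was -1.15 with 0.5 added and -0.39 with 2 added (exact permutation p = 0.667 for both, n = 2 and 5).

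Of the other 35 junction genes 0 were called in myotubes over all libraries by edgeR, with 9 at an unadjusted p under 0.05 (16.8% of all genes) and 2 called by DESeq2 (7.39% of all genes). Within the deep set 1 of the 35 was called, where 3.63% of all genes were: Ncam1 was lower, at -1.60 ± 0.37 (adjusted p = 0.0381, edgeR).

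**Figure D3:**
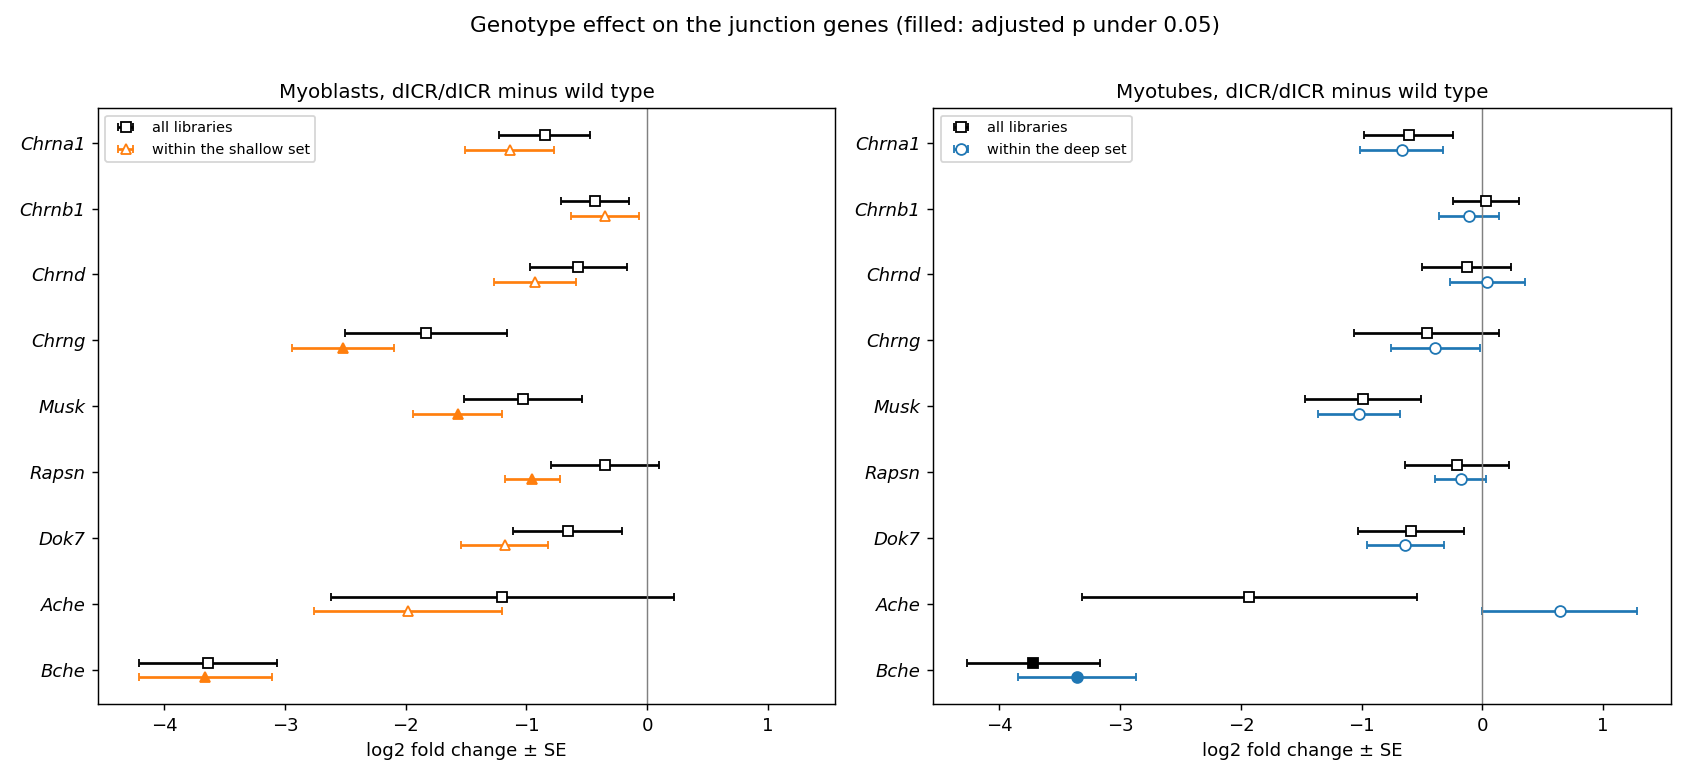
Log2 fold change ± SE between dICR/dICR and wild-type cells (x axis) for 9 genes in myoblasts (left) and myotubes (right), with the sets pooled and in the set where both genotypes occur; filled symbols passed an adjusted p of 0.05. Bche lies between -3.72 and -3.36 in all 4 fits shown, and the other genes lie nearer to 0.

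**Figure D4:**
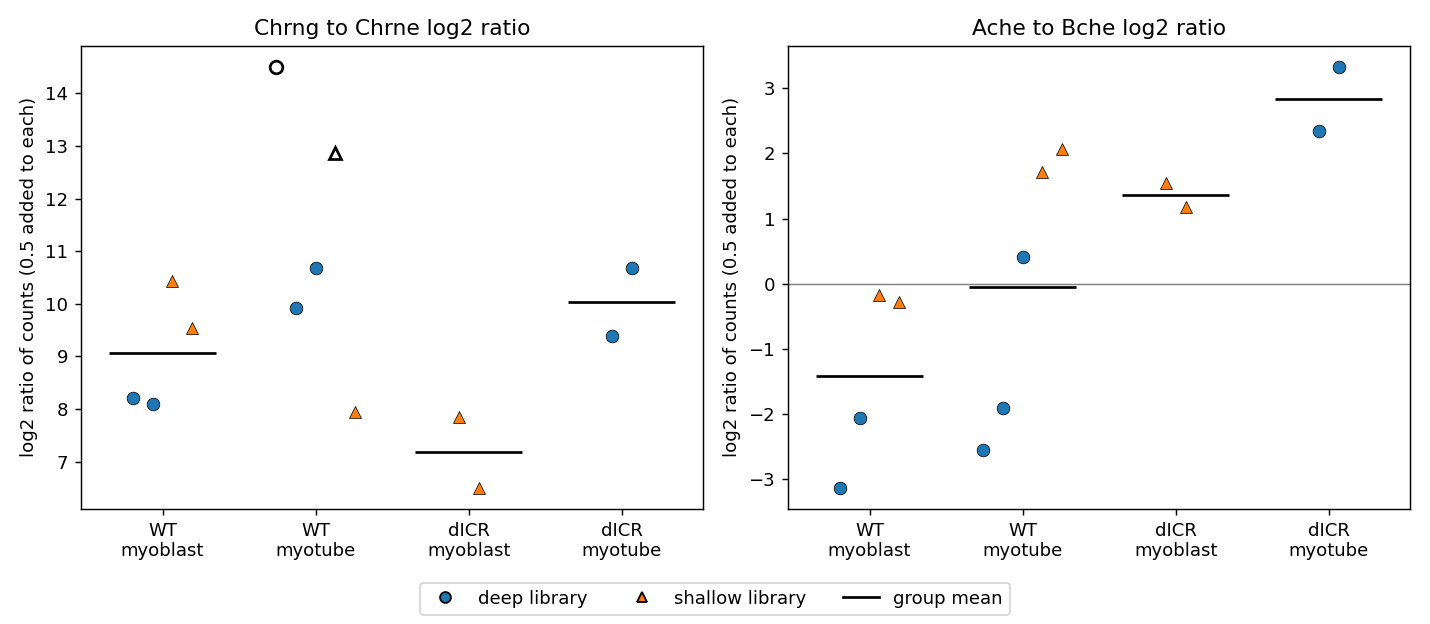
Log2 ratio of counts (y axis, 0.5 added to each count) of Chrng to Chrne (left) and of Ache to Bche (right), 1 point per library and a bar at the group mean. Open symbols mark the 2 wild-type myotube libraries at 0 Chrne counts, whose height is set by the 0.5 added, and that group has no bar. The Ache to Bche ratio is above 0 in all 4 dICR/dICR libraries (1.18 to 3.33) and below 0 in all 4 wild-type myoblast libraries. Wild-type myotubes lie on both sides of 0, from -2.56 to 2.07.

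The last comparisons ask whether dICR/dICR cells changed these genes on differentiation, and whether by as much as wild-type cells. In dICR/dICR cells 0 of 10 genes were called by edgeR over all libraries (0.145% of all genes were), 5 had an unadjusted p under 0.05 (19.2% of all genes), and DESeq2 called 2, Chrnb1 and Chrng (7.91% of all genes). Both myotube libraries were above both myoblast libraries in 6 of the 10 genes, Chrna1, Chrnb1, Chrng, Musk, Rapsn and Dok7, and below them in 2, Chrne and Bche. With 2 libraries against 2, 30% of all genes were higher and 29.1% lower in this way. For Chrne the separation rests on 5 counts in each myoblast library, at 0.391 and 0.652 CPM against 0.381 and 0.333 CPM in myotubes, and gives no direction. All dICR/dICR myoblasts are shallow and all dICR/dICR myotubes deep, so stage and set cannot be told apart here.

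The log2 fold changes in dICR/dICR cells were 1.25 ± 0.43 for Chrna1 (adjusted p = 0.183, edgeR), 1.15 ± 0.32 for Chrnb1 (adjusted p = 0.124) and 2.33 ± 0.74 for Chrng (adjusted p = 0.156). For Musk the value was 1.22 ± 0.55 (adjusted p = 0.257, edgeR), for Dok7 1.70 ± 0.52 (adjusted p = 0.145) and for Bche -0.62 ± 0.58 (adjusted p = 0.569). Without the 4 shallow wild-type libraries Chrng and Dok7 passed, at 2.30 (adjusted p = 0.0147, edgeR) and 1.67 (adjusted p = 0.0218), where 12.8% of all genes were called. The difference between the dICR/dICR and the wild-type change was called for 0 of 10 genes by edgeR and by DESeq2, with 0 of 10 at an unadjusted p under 0.05 by edgeR. Over all genes 0% were called by edgeR, 9.94% had an unadjusted p under 0.05, and DESeq2 called 0.531%. For Chrng the difference was 1.37 ± 0.85 (adjusted p = 0.555, edgeR), 0.71 to 1.81 without 1 library and 0 without the 4 shallow wild-type libraries.

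The genes also varied together across the libraries to different degrees. These values describe all 13 libraries, which differ in depth set, stage and genotype, and none of these was held fixed. Log2 CPM of Chrna1 had a Pearson r of 0.96 with Musk, 0.94 with Chrng, 0.94 with Dok7, 0.76 with Rapsn and 0.29 with Bche. Among all genes tested, those most like Chrna1 included Wdr47 (r = 0.979), Flnc (0.976), Calcoco1 (0.976) and Akap13 (0.973). Those most like Musk were Rbfox2, Flnc and Slc9a9 (each 0.975), Acadsb (0.969) and Rora (0.969), so Flnc, which encodes the muscle filamin, stood in both lists. Bche had less close neighbours, led by Gpc2 (0.927), Mtus1 (0.921), Plcd1 (0.917), Zkscan4 (0.915) and Chsy3 (0.912).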

How the data were processed

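The authors deposited raw counts per gene for 13 RNA-seq libraries. Per the labels' protocols, ribosomal RNA was removed from total RNA of integrity number above 9, which was sequenced on Illumina (paired reads of 101 bases) or SOLiD (paired, 35 and 75 bases). The platform of each library, the gene annotation and the strand setting were not given in the sources used here. Per the submitters' processing notes, TopHat2, HTSeq and the mm9 build were used.

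The tests used R 4.3.3 and edgeR 4.0.16, with genes kept by filterByExpr (by group; count of 10, total of 15), TMM factors, and 1 quasi-likelihood model with 4 group means over 13 libraries. Benjamini-Hochberg adjustment ran over all 16537 genes tested, with a threshold of 0.05, two-sided. Values within a depth set came from a model with a mean per group and set. Alternatives were DESeq2 1.42.0, limma 3.58.1 voom, RLE factors, library size only, no filter, a term for the set, a replicate block and leaving out each library. A fit without the 4 shallow wild-type libraries was added after seeing the data. In it only the dICR/dICR myoblasts are shallow, so every comparison that uses them mixes set with genotype or stage. The edgeR, limma and DESeq2 steps were tested on simulated data for the genotype comparisons and wild-type differentiation. The simulated libraries were independent and had no difference between sets, so that test cannot tell how the steps behave where libraries divide by set. No replicates held the same counts: their chi-square values, divided by the degrees of freedom, were 4.7 to 368.8. Wild-type myoblasts 3 and 4 (4.7) and 1 and 2 (39.8) were close pairs, against 363.5 to 368.8 across the pairs. Wild-type myotubes 4 and 5 were also close (21.9), against 258.1 to 324.1 with the other myotubes. The value was 34.3 for dICR/dICR myoblasts 1 and 2 and 249.2 for dICR/dICR myotubes 1 and 2, the only pairs of their groups. The tests count each library as independent. If the libraries of a pair share a sample, the SE and p-values are too small. Within the shallow set each group is 1 pair with a low value (4.7, 21.9 or 34.3). This limit therefore bears on the genotype and the differentiation comparison in that set. Exon lengths come from a later annotation than mm9.

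The 10 genes, the wider junction list and the marker lists were chosen with earlier results of these data known. Named were all 10 genes, the called genes of the wider list (the 5 with the smallest adjusted p where more were called), and the 5 genes most correlated with Chrna1, Musk and Bche over log2 CPM (prior count 2). Of the genes this rule names, 2 are not reported here.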

Additional observations from a re-analysis of the deposited data

Results flagged for a closer look

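Of 24 groups of 4 or 5 libraries checked, 1 held a library far from the others. Chrne stood at 2.44 CPM in wild-type myotube 5, where the other 4 wild-type myotube libraries held 0 to 0.481 CPM. The value rests on 12 counts in the library with the lowest total. Chance flags about 1 in 20 groups of this kind.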

How the results depend on the processing

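Of the 10 genes' fold changes, the 26 values given above were compared with each alternative, and 508 of 574 such comparisons kept their direction and side of the threshold. Among the 10 genes, the count called in the myoblast genotype comparison (0 over all libraries) was 1 with DESeq2, 1 with a term for the depth set, 4 within the shallow set and 1 without the 4 shallow wild-type libraries. Over all genes these settings called, in the same order, 464 of 13564, 333 of 16537, 868 of 16537 and 1556 of 15643. Leaving out 1 library gave 0 to 1, the latter without wild-type myotube 1. In the myotube genotype comparison (1 called) leaving out 1 library gave 0 to 1, with 0 without either dICR/dICR myotube library. In wild-type differentiation (4 called) it was 1 with library size only, 0 within the shallow set and 1 to 3 without 1 library, with 1 (Dok7) without wild-type myoblast 1, wild-type myoblast 2 or wild-type myotube 3. Over all genes, wild-type differentiation gave 3604 of 16537 with library size only and 1154 of 16537 within the shallow set. In dICR/dICR differentiation (0 of the 10 genes called) the count was 2 with DESeq2, 3 with the set term and 2 without the 4 shallow wild-type libraries. Over all genes these settings called 1199 of 15160, 1262 of 16537 and 2007 of 15643. The set term is estimated from wild-type libraries alone and assumes the same difference between sets in dICR/dICR cells. Of the other junction genes, the myoblast genotype comparison (0 called) gave 1 with DESeq2, 1 with the set term, 4 within the shallow set and 2 without the 4 shallow wild-type libraries. Their myotube comparison (0 called) gave 2 with DESeq2, 1 within the deep set and 0 to 1 without 1 library. Wild-type differentiation (14 called) gave 7 within the shallow set, and dICR/dICR differentiation (0 called) 2 with DESeq2, 9 with the set term and 7 without the 4 shallow wild-type libraries.

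Direction changed in 4 of these 26 values, none of them past the threshold over all libraries, and in 12 of the 19 values that are not given above (Chrne left out). Rapsn in the myoblast genotype comparison (-0.35) was 0.72 without the 4 shallow wild-type libraries. Ache in the myotube genotype comparison (-1.93) was 0.36 with the set term, 0.64 within the deep set and 0.62 without the 4 shallow wild-type libraries. Chrnd in wild-type differentiation (0.15) was -0.15 with library size only, and -0.01 to 0.35 without 1 library. Scaling by library size only moved the median of all genes from 0.02 to -0.26 in wild-type and from 0 to -0.29 in dICR/dICR differentiation. Over the alternatives run for each value, adjusted p (edgeR, limma or DESeq2) for Bche was 4.28e-06 to 0.855 in myoblasts and 1.49e-10 to 0.43 in myotubes. In wild-type differentiation it was 0.000208 to 0.0969 for Dok7, 0.00361 to 0.324 for Chrna1, 0.00758 to 0.298 for Chrnb1, 0.00157 to 0.37 for Musk, 0.00187 to 0.641 for Chrng and 0.000436 to 0.98 for Rapsn.

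The labels do not say that a replicate number marks a shared culture, so the numbers were not taken as pairs. Same-numbered wild-type myotubes and myoblasts had correlations of 0.43, 0.52, -0.41 and 0.52. Differently numbered ones had 0.41 to 0.56 within a depth set and -0.6 to -0.37 across sets. These values divide by set and cannot decide whether the numbers mark pairs. With a replicate block the myotube genotype comparison called 0 of the 10 genes (Bche -3.48, adjusted p = 0.0965, edgeR) and wild-type differentiation 3. Under the block Rapsn in myoblasts was 0.30, Chrng in myotubes 0.28 and Ache in myotubes 1.36.

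Counts over all genes called by DESeq2 were 464 and 1120 for the myoblast and myotube genotype comparisons (5 and 92 by edgeR) and 1199 for dICR/dICR differentiation (24 by edgeR). With the set term they were 333, 425 and 1262, and wild-type differentiation gave 5267 against 3158. The cause of these changes was not tested. Chrne at 0 to 22 counts and Bche at 5 to 24 counts in dICR/dICR cells limit the precision of their values.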
